A study of Homo sapiens with 6 samples.

Results

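The forkhead (FOX) genes encode transcription factors that share the forkhead DNA-binding domain. Members were chosen by name alone, as the protein-coding genes of chromosomes 1 to 22 whose symbol is FOX followed by a letter from A to S, a number and at most 1 further letter. This gave 43 genes of 19126 protein-coding genes in the RefSeq table of GRCh38.p14. Around each gene a window was taken that runs from 5 kb before its lower end to 5 kb after its upper end.

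The study mapped the histone marks H3K27me3 and H3K4me3 by ChIP-seq, in which chromatin bound by an antibody is sequenced. The cells were GATA2+ endothelial cells grown out of H1, an established human embryonic stem cell line. GATA2 is a transcription factor of endothelial and blood development. Cells of the Vc+ condition were derived with Vc, which the series title names as vitamin C, and cells of the Vc- condition without it. Each condition had 1 H3K27me3 library, 1 H3K4me3 library and 1 input, 6 samples in all, and the islands (enriched stretches) of the 4 mark libraries were analysed. With 1 library for each mark and condition there was no replicate check and no test, and every difference given lies between 2 libraries. Each deposited file is named for the other condition than its sample label. The labels set the groups here, and if the file names are the correct ones, every Vc+ and Vc- in the text changes places. The submitters' design text contrasts cells with and without a GATA2 reporter, while every sample is labelled GATA2+.

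Many forkhead factors set up a lineage or an organ in the embryo and are silent in other cells, while a few, such as FOXK1, FOXK2 and FOXM1, serve the metabolism or division of most cells. H3K27me3 is laid down by Polycomb repressive complex 2 and marks silenced developmental genes. H3K4me3 lies at active promoters and at promoters held ready for use. Silent developmental genes of stem cells and their descendants often carry both marks, a state known as bivalent. An overlap of islands from a population of cells does not show whether the marks lie on the same chromosomes or in different cells, and this was not tested.

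On chromosomes 1 to 22 the H3K27me3 lists held 9534 islands over 51.1 Mb in Vc+ and 8893 islands over 40.2 Mb in Vc-. The H3K4me3 lists held 21311 islands over 46.8 Mb in Vc+ and 21583 islands over 42.0 Mb in Vc-. Both Vc+ lists thus covered more bases, and sequencing depth is unknown. Among markers of the labelled cell type, 11 of 11 endothelial genes, among them PECAM1, CDH5 and KDR, had H3K4me3 in Vc+ and in Vc-. Of 5 blood markers, 2 had H3K4me3 in Vc+ and 2 in Vc-, and PTPRC had 0 kb of either mark. Of 5 pluripotency markers, 4 had H3K4me3 in Vc+ and 3 in Vc-, with 0 kb at NANOG. H3K4me3 was called at 4 of 4 epithelial markers in both conditions, at 3 of 5 mural and fibroblast markers in Vc+ and 4 of 5 in Vc-, and at 3 of 3 neural markers in both. H3K27me3 was called in Vc+ at 4 endothelial, 2 blood, 1 pluripotency, 2 epithelial, 0 mural and fibroblast and 3 neural markers, and in Vc- at the same number of each list except for 1 blood marker. The endothelial markers with it were SOX17, ESAM and ERG in both conditions, CDH5 in Vc+ alone and FLI1 in Vc- alone. What other cell types add to the islands at FOX genes was not tested.

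The promoters of 4 members are shown because each stands for a different combination of marks. FOXC1, a regulator of blood vessels, heart and eye, had both marks. FOXL3, known from medaka fish as a switch of germ cell sex, had H3K27me3 alone. FOXO1, which insulin signalling keeps out of the nucleus and which mouse embryos need to form vessels, had H3K4me3 alone. FOXI1, a regulator of ion-transporting cells of kidney and inner ear, had neither. Each sequence is taken from RefSeq on GRCh38.p14, runs from 250 bases before to 50 bases after the annotated start on the strand of the gene, and has every CG dinucleotide in capitals. The intervals are chr6:1609665-1609964 (+ strand) for FOXC1, chr7:289920-290219 (+ strand) for FOXL3, chr13:40666592-40666891 (- strand) for FOXO1 and chr5:170105647-170105946 (+ strand) for FOXI1. FOXC1 holds 40 CG dinucleotides, FOXL3 35, FOXO1 33 and FOXI1 16.
FOXC1: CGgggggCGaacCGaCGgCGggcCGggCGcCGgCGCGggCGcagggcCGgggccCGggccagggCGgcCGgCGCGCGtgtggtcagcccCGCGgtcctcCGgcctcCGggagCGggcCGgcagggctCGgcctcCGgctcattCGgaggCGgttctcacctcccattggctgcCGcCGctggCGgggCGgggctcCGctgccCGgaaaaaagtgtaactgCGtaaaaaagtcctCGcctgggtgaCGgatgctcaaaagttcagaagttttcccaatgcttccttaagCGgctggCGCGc
FOXL3: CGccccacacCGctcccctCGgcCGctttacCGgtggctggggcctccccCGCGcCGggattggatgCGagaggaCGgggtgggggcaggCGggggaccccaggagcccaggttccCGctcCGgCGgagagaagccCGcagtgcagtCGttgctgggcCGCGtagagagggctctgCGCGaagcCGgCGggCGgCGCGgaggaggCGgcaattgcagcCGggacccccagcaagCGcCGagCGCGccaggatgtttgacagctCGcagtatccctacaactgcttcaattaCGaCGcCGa
FOXO1: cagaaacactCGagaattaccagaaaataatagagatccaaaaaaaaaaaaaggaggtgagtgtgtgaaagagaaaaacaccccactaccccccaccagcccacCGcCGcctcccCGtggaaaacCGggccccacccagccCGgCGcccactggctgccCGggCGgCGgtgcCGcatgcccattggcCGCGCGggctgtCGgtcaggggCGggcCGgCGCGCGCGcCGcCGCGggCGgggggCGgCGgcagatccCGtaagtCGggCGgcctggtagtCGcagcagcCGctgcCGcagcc
FOXI1: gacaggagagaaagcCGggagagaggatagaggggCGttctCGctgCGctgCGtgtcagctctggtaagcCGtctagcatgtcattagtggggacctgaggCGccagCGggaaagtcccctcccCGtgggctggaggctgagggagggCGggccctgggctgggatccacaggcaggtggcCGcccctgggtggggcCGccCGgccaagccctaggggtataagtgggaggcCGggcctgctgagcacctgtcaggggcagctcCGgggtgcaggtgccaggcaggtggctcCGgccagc

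Most FOX genes carried H3K27me3 in both conditions. The mark was called, by at least 1 bp of an island in the window, at 30 FOX genes in Vc+ (69.8%) and 29 in Vc- (67.4%), against 24.2% of all protein-coding genes in Vc+ and 22% in Vc-. The same 28 genes were called in both conditions (65.1%, against 19.9% of all genes). H3K4me3 was called at the same 38 FOX genes in Vc+ and in Vc- (88.4%), against 78.8% of all genes in Vc+, 78.7% in Vc- and 77.8% in both. The FOX genes thus stood further from the background in H3K27me3 than in H3K4me3. Long genes have long windows, and 27 FOX genes have a span under 10 kb. Of these 27, H3K27me3 was called at 23 in Vc+ and 24 in Vc-, against 21.6% of 5328 genes of such span in Vc+ and 19.9% in Vc-. H3K4me3 was called at 23 of the 27 in Vc+ and 23 in Vc-, against 61.9% of genes of such span in Vc+ and 61.4% in Vc-. Among short genes both shares were thus above the background, with the wider gap again in H3K27me3.

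Both marks lay in the window of 28 FOX genes in Vc+ (65.1%, against 22.5% of all genes) and of 27 in Vc- (62.8%, against 20.4%). H3K4me3 alone was found at 10 genes in Vc+ (23.3%, against 56.3%) and 11 in Vc- (25.6%, against 58.3%). The order of these states was thus turned round in the family, where both marks were the most frequent state and H3K4me3 alone the next. FOXL3 and FOXS1 had H3K27me3 alone in Vc+ and in Vc- (4.65%, against 1.73% of all genes in Vc+ and 1.58% in Vc-). FOXI1, FOXN1 and FOXR1 had neither mark in either condition (6.98%, against 19.4% in Vc+ and 19.7% in Vc-). FOXN1 is the regulator of thymus epithelium and FOXR1 is a germ line gene.

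**Figure D1:**
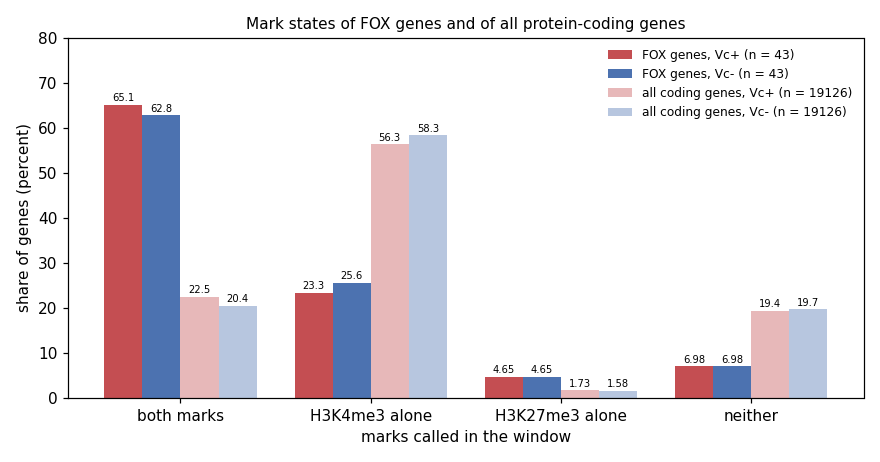
Share of genes (percent, vertical axis) in each of the 4 mark states (horizontal axis) for the 43 FOX genes and for all 19126 protein-coding genes, each in Vc+ (red) and Vc- (blue). Both marks were found at 65.1% of FOX genes in Vc+ and 62.8% in Vc-, against 22.5% and 20.4% of all genes.

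Many H3K27me3 islands at FOX genes were among the widest of their lists. An H3K27me3 island of at least 10 kb lay at 19 FOX genes in Vc+ (44.2%, against 3.59% of all genes) and at 18 in Vc- (41.9%, against 2.7%). The H3K27me3 list of Vc+ held 759 islands of that width, 18 of them at a FOX gene, and that of Vc- held 548, 17 of them at a FOX gene. The whole window was under H3K27me3 at 10 FOX genes in Vc+ (23.3%, against 0.648%) and 8 in Vc- (18.6%, against 0.601%). FOXA1, FOXA2, FOXC1 and FOXD3 were among those covered in this way in both conditions, and FOXD2 and FOXD4 were covered in Vc+ alone. All 10 have a span under 10 kb, and a long gene is harder to cover whole. Among genes of such span, the whole window was covered at 37.0% of FOX genes in Vc+ and 29.6% in Vc-. The shares of all genes of such span were 2.12% and 1.91%. An island of at least 10 kb lay at 70.4% of FOX genes of such span in Vc+ and 66.7% in Vc-, against 5.84% and 4.75%.

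**Figure D2:**
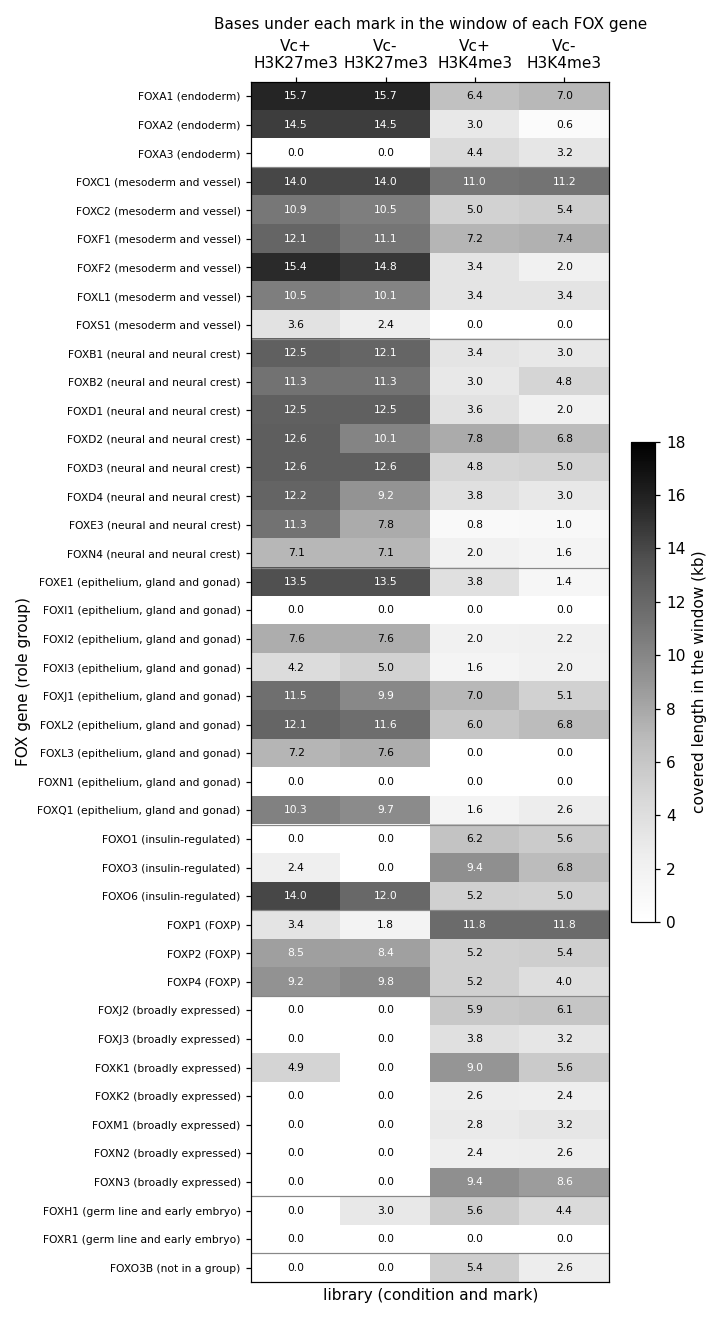
Bases of each FOX window under H3K27me3 and H3K4me3 islands (kb, number and shade), with 1 row for each of 42 genes, grouped by role, and the Vc+ library left of the Vc- library for each mark. Most genes of the neural and mesoderm groups are dark in both H3K27me3 columns, with FOXS1 (3.6 kb in Vc+, 2.4 kb in Vc-) the lightest of them. The broadly expressed genes are at 0.0 in these columns except FOXK1 in Vc+.

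The endoderm genes FOXA1, FOXA2 and FOXA3 encode pioneer factors that open chromatin in liver, lung and pancreas. FOXA2 had the widest H3K27me3 island of the family, 39.0 kb in Vc+ and 36.4 kb in Vc-, which ranked 40 by width in the Vc+ list and 36 in the Vc- list. Its window of 14.5 kb was wholly under H3K27me3 in both libraries. Under that domain H3K4me3 was short, with 3.0 kb in Vc+ and 0.6 kb in Vc-. FOXA1 was covered by an island of 32.0 kb in Vc+ and 31.6 kb in Vc-, and its 15.7 kb in the window were the most of any member. That window was wholly covered in both libraries, so its length set the value. FOXA3 departed from its paralogs, with 0 kb of H3K27me3 and with H3K4me3 over 4.4 kb in Vc+ and 3.2 kb in Vc-. Its window also overlaps SYMPK, and the H3K4me3 there was not assigned to either gene.

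All 6 genes of the mesoderm and vessel group were called for H3K27me3 in Vc+ and in Vc-, with a median of 11.5 kb of the window covered in Vc+ and 10.8 kb in Vc-. FOXC1 lay under a single H3K27me3 island of 30.6 kb in Vc+ and 31.2 kb in Vc-. The same window held 11.0 kb of H3K4me3 in Vc+ and 11.2 kb in Vc-, all of it inside the H3K27me3 island. Its widest H3K4me3 island, of 11.4 kb in Vc+, ranked 34 by width of 21311, and the 9.2 kb island in Vc- ranked 50 of 21583. Both had the ceiling score of 1000, held by 566 islands in Vc+ and 816 in Vc-. FOXC1 thus joined a broad H3K27me3 domain and a broad H3K4me3 domain.

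FOXC2, which controls lymphatic valves, had 10.9 kb of H3K27me3 in the window in Vc+ and 10.5 kb in Vc-, and H3K4me3 over 5.0 kb in Vc+ and 5.4 kb in Vc-. FOXF1, needed for lung vessels and mesenchyme, had 12.1 kb of H3K27me3 in Vc+ and 11.1 kb in Vc-, with 7.2 kb of H3K4me3 in Vc+ and 7.4 kb in Vc-. FOXF2, a factor of gut and brain-vessel mesenchyme, had 15.4 kb of H3K27me3 in Vc+ and 14.8 kb in Vc-, with 3.42 kb of H3K4me3 in Vc+ and 2.02 kb in Vc-. Of these values, H3K4me3 at FOXF2 differed most in proportion, and it was longer in Vc+. FOXS1 had no H3K4me3, and its H3K27me3 island began 1.4 kb past the gene in Vc+ and 2.6 kb past it in Vc-. That island shares the window with DUSP15, and so its state rests on bases outside the gene.

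**Figure D3:**
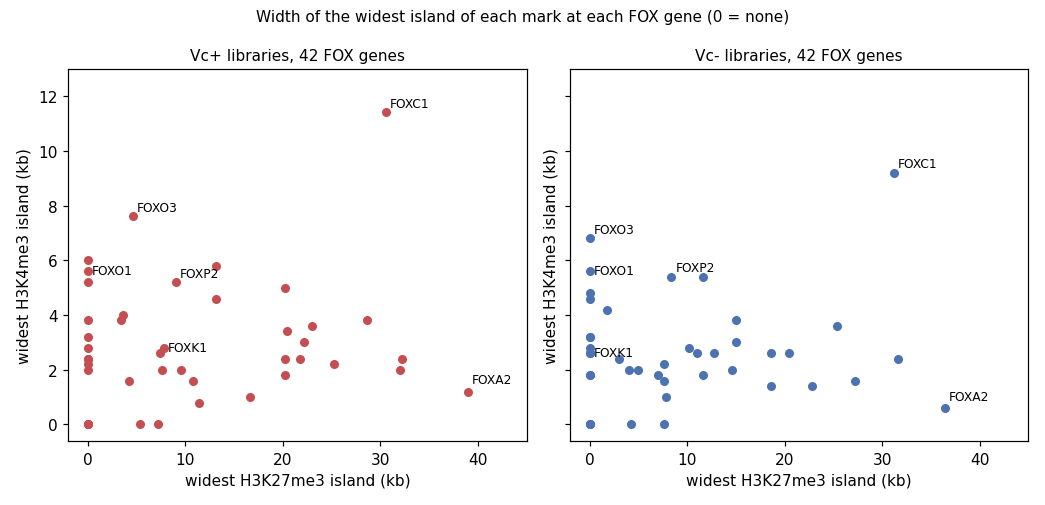
Width of the widest H3K4me3 island (kb, vertical axis) against that of the widest H3K27me3 island (kb, horizontal axis) at each of 42 FOX genes, in Vc+ (left) and Vc- (right), with 0 for none. FOXC1 stands alone at the upper right, with 11.4 and 30.6 kb in Vc+ and 9.2 and 31.2 kb in Vc-, while FOXA2 pairs wide H3K27me3 with short H3K4me3.

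Several FOX genes, among them 5 of the 6 mesoderm and vessel genes, sit in groups of neighbours. On chromosome 6, FOXQ1, FOXF2 and FOXC1 lie within 312 kb with their flanks, and H3K27me3 covered 81.6 kb of that stretch in 7 islands in Vc+, against 66.6 kb in 5 islands in Vc-. H3K4me3 covered 19.9 kb there in Vc+ and 19.7 kb in Vc-. On chromosome 16, FOXF1, FOXC2 and FOXL1 lie within 83.0 kb, with 32.3 kb under H3K27me3 in Vc+ and 30.5 kb in Vc-. FOXC2 and FOXL1, a gut mesenchyme factor, shared 1 island of 20.2 kb in Vc+. In Vc- that domain was called as separate islands, 11.6 kb wide at FOXC2 and 7.8 kb wide over FOXL1. On chromosome 1, FOXE3 and FOXD2 lie within 34.4 kb, and H3K27me3 covered 28.4 kb of it in Vc+ and 19.9 kb in Vc-. In all 3 groups H3K27me3 covered more bases in Vc+, and the whole Vc+ list covers more bases too.

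**Figure D4:**
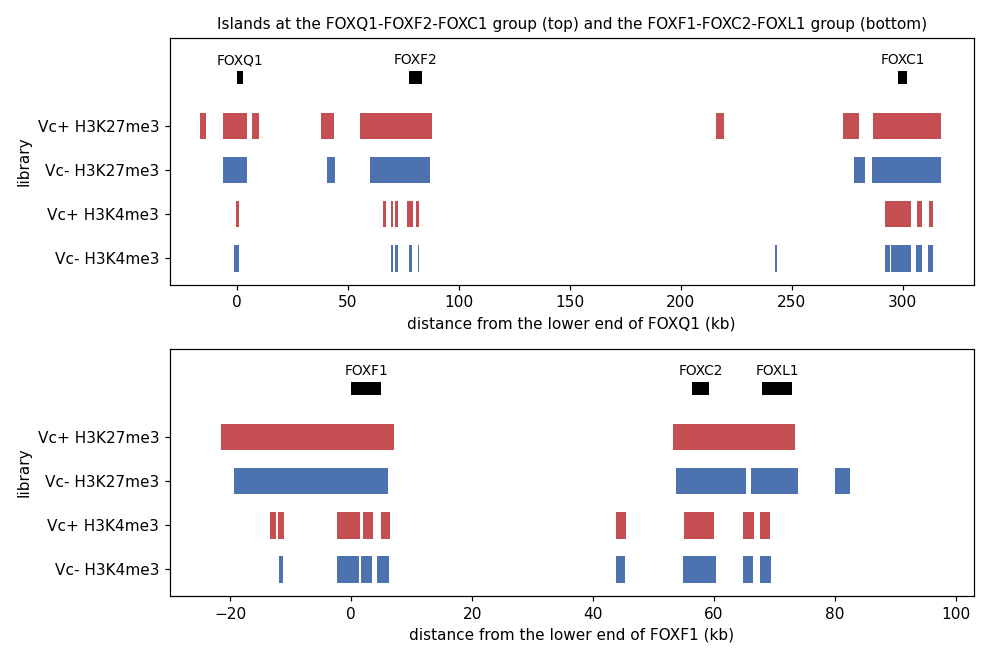
Islands of the 4 libraries (bars) along the FOXQ1, FOXF2 and FOXC1 group (top) and the FOXF1, FOXC2 and FOXL1 group (bottom), by distance in kb from the lower end of the first gene, with genes as black bars, Vc+ in red and Vc- in blue. The 20.2 kb island over FOXC2 and FOXL1 in Vc+ stands where Vc- has separate islands.

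All 9 neural and neural crest genes carried both marks in both conditions, with a median of 12.5 kb under H3K27me3 in Vc+ and 11.3 kb in Vc-. FOXD3, a factor of neural crest, had an island of 20.2 kb in Vc+ and 20.4 kb in Vc-. FOXB1 had 1 island of 20.4 kb in Vc+, where Vc- had 2, of 15.0 and 5.4 kb. FOXD2 had 1 island of 23 kb in Vc+, where Vc- had 2, of 15.0 and 1.4 kb. Among all members called for H3K27me3 in both conditions, 3 had fewer islands in Vc+, 3 had more and 22 had as many. FOXE3, a lens factor, had 11.3 kb of H3K27me3 in the window in Vc+, against 7.8 kb in Vc-, and FOXD4 had 12.2 kb in Vc+, against 9.17 kb in Vc-. Those 2 genes had the largest differences, 3.52 and 3.02 kb, among members called in both conditions. FOXD4 has near-identical copies on chromosomes 2 and 9, so its values are uncertain where reads could map to several of them.

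Of the 9 epithelial, gland and gonad genes, 7 were called for H3K27me3 in Vc+ and in Vc-, all but FOXI1 and FOXN1. FOXE1, a thyroid factor, was wholly covered, by an island of 22.2 kb in Vc+ and 18.6 kb in Vc-. Its H3K4me3 took up 3.77 kb in Vc+ and 1.4 kb in Vc-. FOXJ1, the switch for motile cilia, had 11.5 kb of H3K27me3 in Vc+ and 9.87 kb in Vc-, and FOXL2, which keeps ovarian granulosa cells in their identity, had 12.1 kb in Vc+ and 11.6 kb in Vc-. FOXI2, FOXI3 and FOXL3 had less, between 4.2 and 7.62 kb in Vc+ and between 5.0 and 7.6 kb in Vc-. The 2 FOXI genes with the mark and FOXI1 without it show that close paralogs differed.

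Between the insulin-regulated genes the marks also differed. FOXO1 had no H3K27me3 island, the nearest lying 787 kb away in Vc+ and 787 kb away in Vc-, and its H3K4me3 island of 5.6 kb in both libraries had the ceiling score in both lists. FOXO6, which is expressed mainly in brain, had 14 kb of H3K27me3 in 3 islands in Vc+ and 12 kb in 2 islands in Vc-. FOXO3 had H3K27me3 in Vc+ alone, 2.38 kb in the window. Its island, chr6:108552601-108557200, is 4.6 kb wide and ends 2.62 kb before the gene. Only 26.5% of the Vc+ islands scored lower, so it belongs to the weaker part of the list, and it was not called when a score of at least 10 or flanks of 1 kb were asked for. The nearest Vc- island lay 378 kb from the gene. H3K4me3 at FOXO3 took up 9.4 kb in Vc+ and 6.8 kb in Vc-, and the 2 marks overlapped by 0.2 kb in Vc+. The H3K4me3 island over the start of FOXO3 was 7.6 kb wide in Vc+ and 6.8 kb in Vc-. FOXO3B, a near-identical copy of FOXO3 on chromosome 17, had H3K4me3 over 5.4 kb in Vc+ and 2.6 kb in Vc-, and reads that fit both genes make its values uncertain.

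All 3 FOXP genes, which encode repressors, had both marks in both conditions. FOXP1, a long gene, had little H3K27me3, 3.4 kb in Vc+ and 1.8 kb in Vc-, and its H3K4me3 covered 11.8 kb in Vc+ and 11.8 kb in Vc-. The H3K27me3 lay beside the 5′ end and overlapped H3K4me3 by 2.2 kb in Vc+ and 0.4 kb in Vc-. FOXP2, known for its role in speech, had 8.47 kb of H3K27me3 in Vc+ and 8.4 kb in Vc-, with all of its 5.2 kb of H3K4me3 under it in Vc+ and 92.6% of 5.4 kb in Vc-. FOXP4 had 9.22 kb of H3K27me3 in Vc+ and 9.8 kb in Vc-. Among called members, FOXO3 had the fewest H3K27me3 bases in Vc+, followed by FOXP1 and FOXS1, and FOXP1 had the fewest in Vc-, followed by FOXS1 and FOXH1.

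The 7 broadly expressed genes had H3K4me3 in both conditions, and 6 of them had no H3K27me3. FOXM1, which drives genes of cell division, had 2.8 kb of H3K4me3 in Vc+ and 3.2 kb in Vc-, in a window that also holds ITFG2, RHNO1 and TEX52. FOXK2, a nuclear partner of the deubiquitinase BAP1, had 2.6 kb in Vc+ and 2.4 kb in Vc-. FOXK1, its paralog, was the exception. An H3K27me3 island of 7.8 kb, chr7:4674401-4682200, reached to 0.095 kb before the gene in Vc+, and the nearest Vc- island lay 20.7 kb away. Of the Vc+ islands, 63.7% scored lower than this one, a place in the middle of the list. Without flanks the gene itself held 0 kb of H3K27me3 in either condition.

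At FOXK1 both marks also lay differently at the annotated start. The H3K4me3 island there ran between 0.494 kb before and 2.1 kb after the start in Vc+, and between 0.306 and 2.9 kb after it in Vc-. The marks overlapped by 0.4 kb in Vc+. Over the whole window H3K4me3 covered 9.04 kb in Vc+ and 5.64 kb in Vc-, the largest difference in that mark among the members at 3.4 kb. FOXO3B (2.8 kb) and FOXO3 (2.6 kb) followed. Each of these 2 had a low-scoring H3K4me3 island in Vc+ alone. It was 2.2 kb wide at FOXO3B, with 4.15% of the Vc+ list below it, and 1.8 kb at FOXO3, with 7.36% below. The H3K4me3 in the FOXK1 window lay in 5 islands in Vc+ and 3 in Vc-, so 2 of them were found in Vc+ alone. Those 2 FOXK1 islands scored low, with 27.3% and 4.58% of the Vc+ list below them. The window also overlaps AP5Z1, and an island past the end of FOXK1 is counted in both conditions.

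FOXH1, the SMAD partner that carries nodal signals in the early embryo, was called for H3K27me3 in Vc- alone. The island, chr8:144471801-144474800, is 3.0 kb wide, and 65.1% of the Vc- islands scored lower. In Vc+ the nearest island lay 114 kb from the gene. H3K4me3 covered 5.6 kb of the window in Vc+ and 4.4 kb in Vc-, and KIFC2 and PPP1R16A share that window. FOXK1, FOXO3 and FOXH1 were the members whose H3K27me3 call differed: 2 in Vc+ alone (4.65%, against 4.36% of all genes) and 1 in Vc- alone (2.33%, against 2.13%). These shares are close to the background. No member had an H3K4me3 call in 1 condition alone, against 1.04% of all genes in Vc+ alone and 0.894% in Vc- alone.

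**Figure D5:**
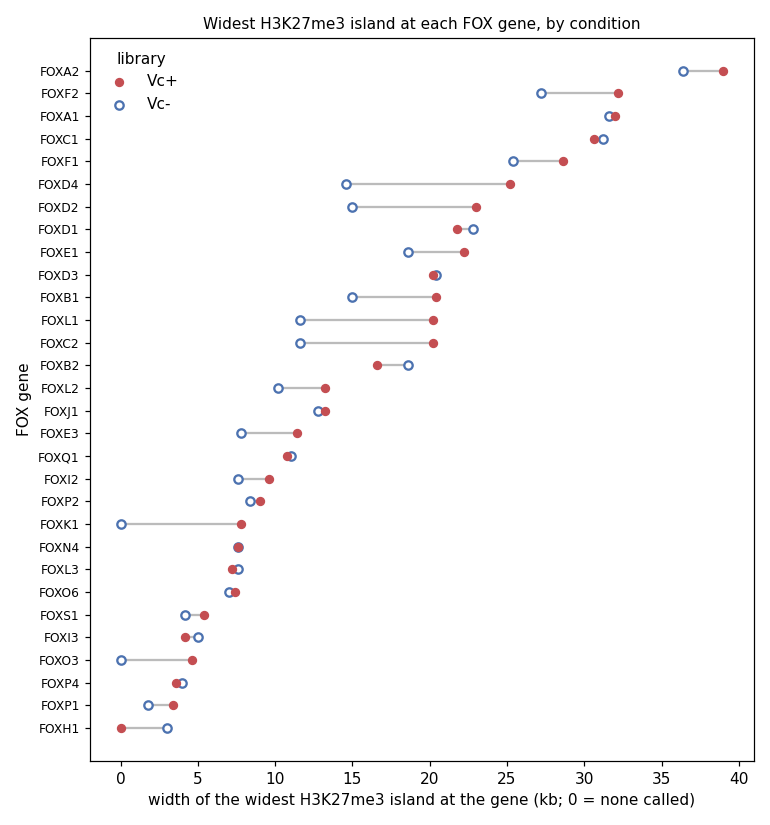
Width of the widest H3K27me3 island (kb, horizontal axis) at each of 30 FOX genes called in at least 1 condition (vertical axis), in Vc+ (filled red) and Vc- (open blue), with 0 where none was called. FOXK1, FOXO3 and FOXH1 have a point at 0, and most other pairs lie close together, with FOXD4 (25.2 kb in Vc+, 14.6 kb in Vc-) the widest apart.

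Among the 28 genes called for H3K27me3 in both conditions, the covered length in the window had a median of 11.8 kb in Vc+ and 10.3 kb in Vc-. It was longer in Vc+ at 16 of the 28 genes (57.1%, against 64.1% of 3803 such genes) and shorter at 3 (10.7%, against 28.0%), namely FOXI3, FOXL3 and FOXP4. The median difference of Vc+ minus Vc- was 0.215 kb, with a range of -0.8 kb at FOXI3 to 3.52 kb at FOXE3, against a median of 0.6 kb for all such genes. The lengths were equal at 9 genes. At 8 of them the window was wholly covered in both libraries and so could not differ, and the other was FOXN4, with 7.08 kb in both. Counted over whole islands, the median difference was 1.4 kb, with 20 genes longer in Vc+ and 6 shorter. Of the window bases under H3K27me3 in either condition, a median of 93.1% was shared at FOX genes. It was 67.6% at all genes called in both conditions and 74.1% at those with a span under 10 kb. The 8 FOX windows covered whole in both libraries share all their bases by construction, which lifts the FOX median. For H3K4me3 over 38 genes the median difference was 0.3 kb, with 21 longer in Vc+ (55.3%, against 59.7%) and 15 shorter (39.5%, against 27%).

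At many FOX genes with both marks, H3K4me3 lay wholly inside H3K27me3. All H3K4me3 bases of the window were under H3K27me3 at 23 FOX genes in Vc+ (53.5%, against 8.65% of all genes) and at 17 in Vc- (39.5%, against 7.29%). The share inside was lowest at FOXO3 (2.13%), FOXK1 (4.42%) and FOXP1 (18.6%) in Vc+, and at FOXP1 (3.39%) and FOXH1 (22.7%) in Vc-. Among genes with both marks, the median share of H3K4me3 bases so covered was 100% at FOX genes in both conditions, against 67.8% at all such genes in Vc+ and 60.0% in Vc-. The highest H3K4me3 score at a gene with both marks exceeded a median of 60.6% of the list at FOX genes in Vc+ and 49.4% in Vc-, against 58.2% at all such genes in Vc+ and 55.1% in Vc-. At FOX genes with H3K4me3 alone it exceeded 87.2% in Vc+ and 89.0% in Vc-, against 76.4% and 76.6% at all such genes. H3K4me3 scores thus ranked lower, by median, at FOX genes with both marks, although FOXC1 in both conditions and FOXO3 and FOXP1 in Vc+ reached the ceiling.

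The promoter table held 32 of the 43 members. H3K27me3 overlapped the promoter of 300 bases at 18 FOX genes in Vc+ and 18 in Vc- (56.2%), against 12.5% of 15101 promoters in Vc+ and 10.6% in Vc-. H3K4me3 did so at 25 in Vc+ (78.1%, against 70.8%) and 24 in Vc- (75%, against 70.1%). Both marks overlapped 15 promoters in Vc+ and 15 in Vc- (46.9%, against 10.7% in Vc+ and 8.7% in Vc-). At promoters, as in the windows, FOX genes stood further from all genes in H3K27me3 than in H3K4me3. FOXK1 had H3K27me3 and H3K4me3 over its promoter in Vc+ and neither in Vc-, whereas FOXP4 had H3K27me3 there in Vc- alone. The FOXP4 island ended at 41546000 in Vc+ and at 41546200 in Vc-, and the promoter starts at 41546131. H3K4me3 also overlapped the promoter of FOXE1 in Vc+ alone and that of FOXB2 in Vc- alone. Over all promoters, H3K27me3 was found in Vc+ alone at 2.91% and in Vc- alone at 1.01%, and H3K4me3 at 1.7% and 1.02%. Calls at single genes of 32 cannot be told from such shares. The entry of FOXP2 starts 328 kb inside the gene span and held neither mark.

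Promoters of FOX genes held more CG dinucleotides, by median, than those of all genes. The median was 30.5 per 300 bases over the 32 promoters, against 22 over all 15101. In Vc+ it was 29.0 at the 21 FOX genes with both marks, 37.0 at the 7 with H3K4me3 alone and 16 at the 3 with neither, while FOXL3 had 35. In Vc- it was 28 at the 19 FOX genes with both marks and 42 at the 9 with H3K4me3 alone. Over all genes the median in each condition was 25 with both marks, 26 with H3K4me3 alone and 3 with neither. Among FOX genes the ranges overlapped. In Vc+ they were 1 to 55 with both marks and 8 to 55 with H3K4me3 alone, against 1 to 42 and 8 to 55 in Vc-. The highest value with both marks in Vc+ is that of FOXK1. The forkhead-binding motif TGTTTAC, read on both strands, was in 0 of the 32 promoters, against 2.69% of all. The GC box GGGCGG, which itself holds a CG, was in 81.2% of FOX promoters, against 58.7% of all, and CCAAT in 25%, against 36.1%.

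Genes that work with FOX factors were called for H3K27me3 no more often than all genes. The list holds 20 partners and regulators, among them the insulin pathway kinases PIK3CA and AKT1 and the cell division genes MYBL2, CCNB1 and PLK1. All 20 had H3K4me3 in Vc+ and in Vc-, against 78.8% of all genes in Vc+ and 78.7% in Vc-. H3K27me3 was called at 3 of them in Vc+ and 4 in Vc-: SGK1, SMAD3 and AKT2 in both conditions, and INSR in Vc- alone with 1.34 kb, where the shares of all genes were 24.2% in Vc+ and 22% in Vc-. Genes beside FOX genes, most of them non-coding, have windows that often overlap those of the FOX genes, so that the same islands are counted for both. Of 12 such genes in the table, H3K27me3 was called at 10 in Vc+ and 10 in Vc-, and H3K4me3 at 12 in Vc+ and 11 in Vc-. FENDRR, the long non-coding RNA that shares its promoter region with FOXF1, had 24.9 kb of H3K27me3 in Vc+ and 22.7 kb in Vc-. LINC00261, beside FOXA2, had 26.8 kb in both conditions, with 1.04 kb of H3K4me3 in Vc+ and 0 kb in Vc-. FOXP1-AS1 had H3K4me3 alone in both conditions, whereas FOXP1 had both marks.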

How the data were processed

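H3K27me3 and H3K4me3 islands of 4 libraries were analysed, grouped by the condition and antibody in the labels. The 2 inputs were not used. The authors' tools, per the submitters' processing notes, were deepTools, Bowtie2 and SICER, and the builds given are GRCh38 and hg38. Versions and settings are not given in the sources used here. The authors deposited 1 list per library, with a score for each island, which from its values reads as −log10 of a false discovery rate with a ceiling of 1000. Scores were ranked only within a list. Island widths are multiples of 200 bp. Deposited starts count from 0, and coordinates here count from 1. A gene was called where at least 1 bp of an island lay in its span with 5 kb on either side. Gene spans and promoters came from RefSeq tables of GRCh38.p14, without exons. Exonic and intronic bases are not told apart. Read depth is unknown, so no interval is given. Both marks stand in the antibody field of the labels, whereas the protocol mentions an H3K27me3 antibody alone.

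The members and lists were chosen with earlier results of these data known. Named in full were members whose calls differed, those with both marks in 1 condition alone, 10 chosen by name, and those with the most, the fewest or the most different covered bases. The others are given by role group. Values of 1 member are not reported here, and the plots by gene leave it out, while counts include it. Interval code was checked against bedtools 2.31.1, with 0 of 19126 genes differing, and on simulated data, where 200 of 200 planted islands were recovered per library. Python 3.11.15, numpy 2.4.6, pandas 2.3.3 and matplotlib 3.10.9 were used. Alternatives were other windows, overlaps, score thresholds, list lengths, backgrounds and whole islands.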

Additional observations from a re-analysis of the deposited data

How the results depend on the processing

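The values checked were counts of FOX genes, median differences between Vc+ and Vc-, and shares of all genes called. Under the alternatives 66 values stayed close to the value reported (within 1.5 times for counts) and 10 moved. The shares of all genes were recomputed only for genes with a span under 10 kb, and each of them moved. The contrast of FOX genes with all genes was not checked under the other alternatives. The order of Vc+ and Vc- in H3K27me3 rests on single genes: over the gene span without flanks the mark was called at 27 genes in Vc+ and 28 in Vc-, and both marks at 26 in Vc+ and 27 in Vc-, the reverse of the order reported. With 1 kb flanks, and with lists of equal length, the counts were the same in both conditions. The 2 genes with H3K27me3 in Vc+ alone became 0 over the gene span without flanks, 1 (FOXK1) with 1 kb flanks, and 1 (FOXK1) when the Vc+ list was shortened to the covered length of the Vc- list. FOXO3 was lost in each of these 3, at 1 kb around the gene ends and at a score of at least 10, and FOXP1 took its place in the last 2. When at least 1000 bp were asked for, H3K4me3 was called in Vc+ alone at 1 gene (FOXA2) and in Vc- alone at 1 gene (FOXE3). Over genes with a span under 10 kb, the share of all genes called was 21.6% for H3K27me3 in Vc+ and 19.9% in Vc-, and 61.9% for H3K4me3 in Vc+ and 61.4% in Vc-. The median H3K27me3 difference was 1.4 kb over whole islands. The cause was not tested. No paired analysis was possible because each group had 1 library.

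The H3K27me3 list of Vc+ covers more bases than that of Vc-, and a depth difference and a condition difference cannot be told apart. Windows covered whole cannot show a longer domain. Without a second library, repeatability of an island was not measured.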

Other observations

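FOX genes that the naming rule leaves out were measured the same way. FOXD4L1, FOXD4L3, FOXD4L4, FOXD4L5 and FOXD4L6, near-identical copies of FOXD4, had between 9.1 and 11.8 kb of H3K27me3 in the window in Vc+ and between 8.75 and 10.9 kb in Vc-. Reads that fit several copies make these values uncertain. On the X chromosome, FOXP3, the regulator of regulatory T cells, and FOXO4 had H3K4me3 alone in both conditions. FOXP3 had 1.51 kb in Vc+ and 1.11 kb in Vc-, and FOXO4 had 2.0 kb in Vc+ and 2.8 kb in Vc-. FOXR2 had neither mark.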
